A study of Mus musculus with 60 samples.

Results

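The genes of polyamine synthesis and its control were followed through a time course of MYC activation in mouse pancreatic islets. The set holds Odc1, Srm, Sms and Amd1 on the side of synthesis, Azin1, Oaz1 and Oaz2 as regulators, and Sat1 on the side of breakdown. A gene entered where a probe set of the array carried its symbol and no other, and among several such probe sets the one with the widest interquartile range over the kept arrays stood for the gene. Of the 8 genes, 6 had at least 1 such probe set, with 12 probe sets between them, out of 18193 genes with a single-symbol probe set. All 6 also passed the filter on spread and were among the 13176 genes tested. The 3 probe sets annotated to Sms also carried the symbol of its pseudogene Sms-ps, so no value is given for Sms. Amd1 was not analysed here. A further probe set of Oaz1 carried several symbols and was not used.

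All mice carried pIns-MYCERTAM, a transgene in which the insulin promoter drives a protein that joins MYC to a modified hormone-binding domain of the oestrogen receptor in beta cells. The fusion protein is present in every group and becomes active once 4-hydroxytamoxifen (4OHT) binds it. Male CBA-C57BL/6 mice were given 1 mg of 4OHT daily into the abdominal cavity (MycON) or peanut oil (MycOFF). Each MYC state was combined with exendin-4, an agonist of the GLP-1 receptor, at 50 µg/kg under the skin, 2 doses a day from 2 days before, or with water. Islets were cut by laser from frozen sections of the pancreas at 4, 8, 16, 32 or 72 h. One label gives the age as 8 to 12 weeks and another as 3 months. Every MycON mouse received 4OHT, and no mouse without the fusion received it, so an effect of the drug and an effect of MYC cannot be told apart.

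Of 60 Affymetrix arrays the submitters kept 52: 13 MycON and 12 MycOFF arrays with water, and 12 MycON and 15 MycOFF arrays with exendin-4. The labels call the arrays of a group biological replicates without tying them to named animals, so the p-values measure the spread among these arrays. Each deposited value is on the log2 scale and says how far a probe set lay, in that array, from its median over the 60 arrays. Levels of different genes therefore cannot be compared, and all values given here for a gene are such deviations or differences between them.

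Polyamines (putrescine, spermidine and spermine) are small positively charged molecules that bind nucleic acids and are needed for growth and translation. Ornithine decarboxylase, the product of Odc1, makes putrescine, and the spermidine synthase Srm and the spermine synthase Sms extend it with aminopropyl groups supplied through the enzyme encoded by Amd1. Antizymes such as Oaz1 and Oaz2 bind ornithine decarboxylase and send it to the proteasome, the antizyme inhibitor Azin1 releases it, and Sat1 acetylates spermidine and spermine for export or oxidation. Odc1 is a long-known direct target of MYC.

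Over both injections and all times, Odc1 and Sat1 were higher and Oaz2 was lower in MycON islets, while Srm, Azin1 and Oaz1 did not pass the test. Thus 3 of the 6 measured genes passed the threshold (limma, Benjamini-Hochberg adjusted p under 0.05 over all 13176 genes), 2 higher and 1 lower, against 15.4% of all tested genes (9.93% higher and 5.48% lower). The Oaz2 call rests on 1 probe set, and another past the filter, 1426764_at, differed by 0.03 (limma adjusted p 0.859). The median difference of the 6 genes was 0.50 on the log2 scale, against -0.03 for all tested genes. That median pools genes of synthesis, control and breakdown, so it gives no direction of the pathway. The members were chosen with earlier results of these data known, so the count and the median are descriptions only. In these bulk islet samples fewer cells of a type and less RNA per cell cannot be told apart. Markers of other cells moved along the same contrast: 5 of 8 macrophage markers were higher and 3 of 6 tested beta-cell markers were lower in MycON islets. The mean deviation of the 8 macrophage markers ran from -1.71 to 0.67 over MycOFF arrays and from -1.06 to 3.39 over MycON arrays. The mean of the beta-cell markers ran from -1.50 to 1.66 and from -1.60 to 1.26. Of 7 acinar, 2 duct, 6 stromal and 5 alpha-, delta- and PP-cell markers tested, 0 passed (limma; at unadjusted p under 0.05, 1 stromal marker did), and 1 of 4 endothelial markers was lower. The part of these cell types in the polyamine gene results was not tested. With the 8 excluded arrays put back, Odc1 passed over both injections but Sat1 (limma adjusted p 0.105) and Oaz2 (adjusted p 0.0535) did not. Nor did Odc1 at 8 h (adjusted p 0.182), Oaz2 at 4 h (adjusted p 0.0695) or Sat1 at 72 h (adjusted p 0.513). In these 8 arrays the beta-cell marker mean had a median of -5.15, against 0.08 in the kept arrays. Their stromal mean had a median of 1.95, against -0.26. The part of these markers in the lost calls was not tested.

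**Figure D1:**
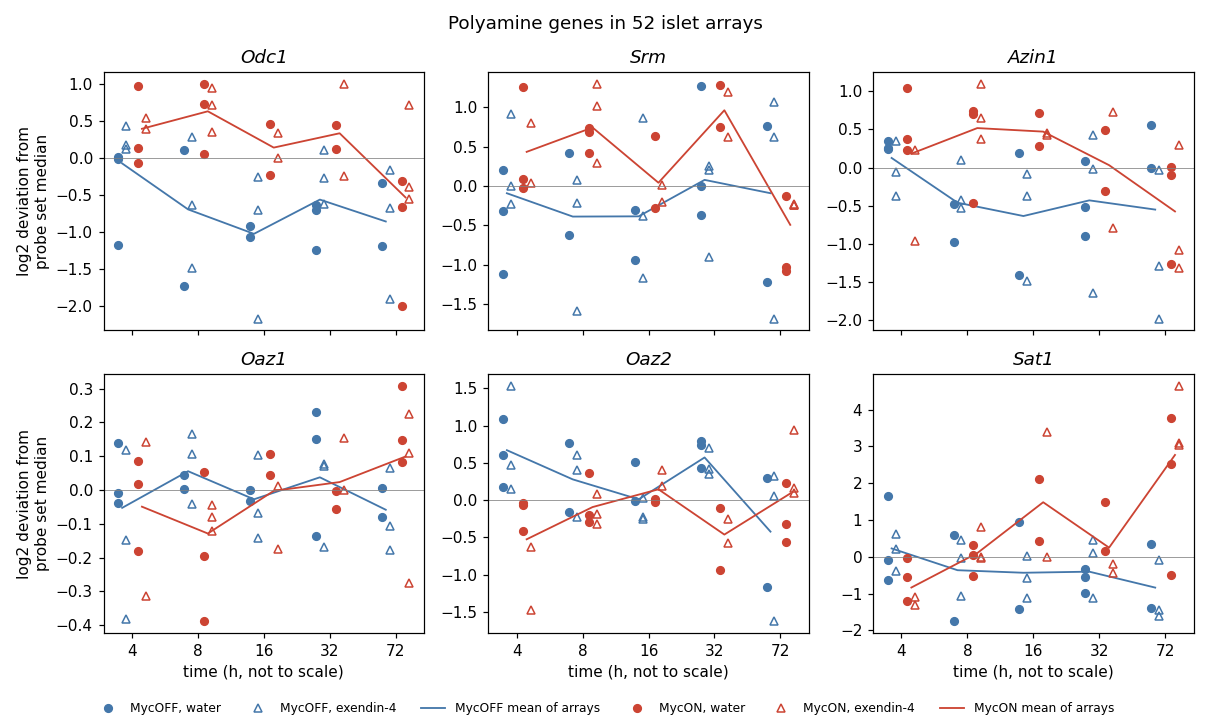
Log2 deviation from each gene's own median (vertical axis) in every kept array, for the 6 measured genes, by MYC state, injection and time (horizontal axis, h, not to scale), with lines through the mean of each MYC state. Odc1 lies higher in most MycON arrays, Oaz1 stays between -0.39 and 0.31 throughout, and the Sat1 values above 2 belong to MycON arrays at 16 and 72 h.

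The promoters of the 3 genes that passed are shown because the genes moved in different directions under the same contrast. Each is the stretch of 250 bases before the start used in the RefSeq promoter table of build GRCm38.p6, read 5′ to 3′ on the gene's strand, with capitals marking GGGCGG (the core of the GC box bound by Sp1) on either strand. The positions are chr12:17544623-17544872 on the plus strand for Odc1, chr9:65676298-65676547 on the plus strand for Oaz2 and chrX:155216450-155216699 on the minus strand for Sat1. The Odc1 window belongs to a start inside the gene, so 65 of its bases lie within the gene as the RefSeq gene table of the same build places it, against 0 for Oaz2 and Sat1.
Odc1: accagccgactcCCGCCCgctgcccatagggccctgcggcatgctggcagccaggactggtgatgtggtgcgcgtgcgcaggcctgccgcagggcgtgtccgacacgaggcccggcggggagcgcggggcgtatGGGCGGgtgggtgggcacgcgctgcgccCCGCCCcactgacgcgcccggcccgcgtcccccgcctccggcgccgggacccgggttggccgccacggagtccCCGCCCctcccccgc
Oaz2: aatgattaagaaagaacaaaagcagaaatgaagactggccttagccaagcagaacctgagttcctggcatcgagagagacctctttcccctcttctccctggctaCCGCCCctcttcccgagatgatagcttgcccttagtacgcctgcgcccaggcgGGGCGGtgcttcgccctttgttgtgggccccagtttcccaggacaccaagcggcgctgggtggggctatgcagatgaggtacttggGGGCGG
Sat1: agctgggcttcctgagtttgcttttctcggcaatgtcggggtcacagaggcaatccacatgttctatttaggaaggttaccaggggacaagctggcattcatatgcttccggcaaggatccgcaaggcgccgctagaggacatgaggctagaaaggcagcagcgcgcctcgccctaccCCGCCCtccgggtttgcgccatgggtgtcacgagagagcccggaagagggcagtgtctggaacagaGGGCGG
The windows hold 4 matches of GGGCGG for Odc1, 3 for Oaz2 and 2 for Sat1, and 32.7% of 32851 promoter windows of the same length hold at least 1. The E-box CACGTG, the preferred letters of MYC with its partner MAX, has 0 matches in the 3 windows and is present in 6.02% of all windows. The cyclic AMP response element TGACGTCA also has 0 matches, against 1.55% of all windows. Both strands were searched, and these letters being absent from a window says nothing about binding elsewhere, such as in the first intron of Odc1 where its known E-boxes lie. The G and C content is 80% for Odc1, 58% for Oaz2 and 59.6% for Sat1.

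Odc1, a rate-limiting enzyme of the pathway, was the member with the smallest p over both injections. With water, its deviation had a lowest value of -1.72, a median of -0.81 and a highest value of 0.11 in MycOFF islets, and -2.00, 0.13 and 1.00 in MycON islets. With exendin-4 the same values were -2.16, -0.26 and 0.44 in MycOFF islets and -0.55, 0.37 and 1.01 in MycON islets. The MYC states overlapped, but 23 of 25 MycON arrays lay above the MycOFF median and 10 lay above every MycOFF array. The difference over both injections was 0.84 ± 0.18 (SE; 25 against 27 arrays), a 1.79-fold higher value with an adjusted p of 0.00109 in limma. In 9 of the 10 pairs of groups matched for injection and time the MycON mean was higher, the exception being water at 72 h.

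Within each injection the Odc1 difference was of similar size. It was 0.83 ± 0.26 with water (limma adjusted p 0.0504) and 0.84 ± 0.25 with exendin-4 (adjusted p 0.0387). The first misses the threshold narrowly and the second passes it, and the difference between them was tested as an interaction, which did not pass (adjusted p 1.00). With water 0 of the 6 genes passed in limma, against 5.59% of all tested genes, and with exendin-4 1 of 6 passed, against 5.79%. At unadjusted p under 0.05, 3 of the 6 did with water, against 2339 of all 13176 tested genes. The Odc1 call with exendin-4 is lost with quantile normalization (limma adjusted p 0.0543), with no filter on spread and with array weights. It is also lost when any 1 of 14 of the 52 arrays is left out (adjusted p up to 0.124). These were MycON exendin-4 replicates 1 and 2 at 4 h, 1 at 8 h, 1 and 3 at 16 h, 1 at 32 h and 3 at 72 h, and MycOFF exendin-4 replicates 1 and 3 at 4 h, 1 at 8 h, 3 at 16 h, 1 and 2 at 32 h and 2 at 72 h. Without the 72 h groups, an alternative chosen after seeing the data, the Odc1 difference was 1.10 with water (adjusted p 0.0176) and 0.84 with exendin-4 (adjusted p 0.0804).

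By time, Odc1 differed most at 8 h. In MycOFF islets at 8 h its deviation was -1.72 and 0.11 (water) and -1.48, -0.63 and 0.28 (exendin-4). In MycON islets it was 1.00, 0.74 and 0.05 (water) and 0.95, 0.71 and 0.36 (exendin-4). Thus 5 MycON arrays lay above all 5 MycOFF arrays, and the remaining 1, at 0.05, lay among the MycOFF values. The difference was 1.34 ± 0.39 (2.54-fold, limma adjusted p 0.0426), and Odc1 was the 1 of 6 genes that passed at 8 h, against 3.93% of all tested genes. Beta-cell markers also moved at 8 h: 1 of 6 was lower, the median difference was -1.29, and their mean ran from 0.52 to 1.57 in MycOFF and from -1.60 to 0.12 in MycON islets, without overlap. Their part in the Odc1 result was not tested. For the probe set that stands for Odc1 the call rests on single arrays. Leaving out each in turn gave differences from 0.89 to 1.80, with a limma adjusted p up to 0.405. The lowest difference came without MycOFF water replicate 1. The call was lost without any of the 3 MycON exendin-4 arrays at 8 h, MycON water replicates 1 and 2, MycOFF exendin-4 replicates 1 and 2 or MycOFF water replicate 1. With no filter on spread the call was also lost. The other probe sets are given below.

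At 16 h the MycOFF values of Odc1 were -1.06 and -0.92 (water) and -0.25, -0.70 and -2.16 (exendin-4). In MycON islets it stood at -0.23 and 0.47 (water) and at 0.00 and 0.34 (exendin-4). The groups did not overlap, although the closest values, -0.25 and -0.23, nearly touched. The share of all tested genes without overlap between such small groups is not given, here or for Azin1 and Oaz2 below. The difference of 1.16 ± 0.43 did not pass (limma adjusted p 0.157), and 0 of the 6 genes did at 16 h, against 2.28% of all tested genes. At unadjusted p under 0.05, 3 of the 6 did at 16 h, against 2161 of all 13176 tested genes. At 4, 32 and 72 h the differences were 0.48, 0.90 and 0.31. At 72 h the MycON values spread from -2.00 to 0.72, wider than at any earlier time, and overlapped the MycOFF values of -1.90 to -0.16. The change of the Odc1 effect over time did not pass the F test (limma adjusted p 0.735).

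The other probe sets of Odc1 gave the same direction over both injections. Probe set 1427364_a_at differed by 0.63 ± 0.10 (limma adjusted p 2.6e-05) and 1437711_x_at by 0.47 ± 0.11 (adjusted p 0.00208), both adjusted over the single-symbol probe sets past the filter and those of the members. Probe set 1427364_a_at also passed with water (0.74, adjusted p 0.00148) and with exendin-4 (0.51, adjusted p 0.0227), whereas 1437711_x_at passed with water (0.55, adjusted p 0.0289) but not with exendin-4 (0.39, adjusted p 0.132). At 8 h both passed, with 1.45 ± 0.22 (limma adjusted p 5.4e-05) and 0.98 ± 0.23 (adjusted p 0.0101). At 16 h the probe sets of Odc1 disagreed in size: 1427364_a_at differed by 0.03 and 1437711_x_at by 0.39, against 1.16 for the probe set that stands for the gene. At 32 h 1427364_a_at passed with 1.07 ± 0.23 (limma adjusted p 0.00562). Probe set 1437711_x_at, with 0.67 (adjusted p 0.153), and the one that stands for the gene, with 0.90, did not. At 4 h none of the 3 passed, with 0.76 for 1427364_a_at (adjusted p 0.0518) and 0.40 for 1437711_x_at against 0.48. At 72 h the probe sets differed in sign, at -0.17 and -0.06 against 0.31, and none of the 3 passed.

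**Figure D2:**
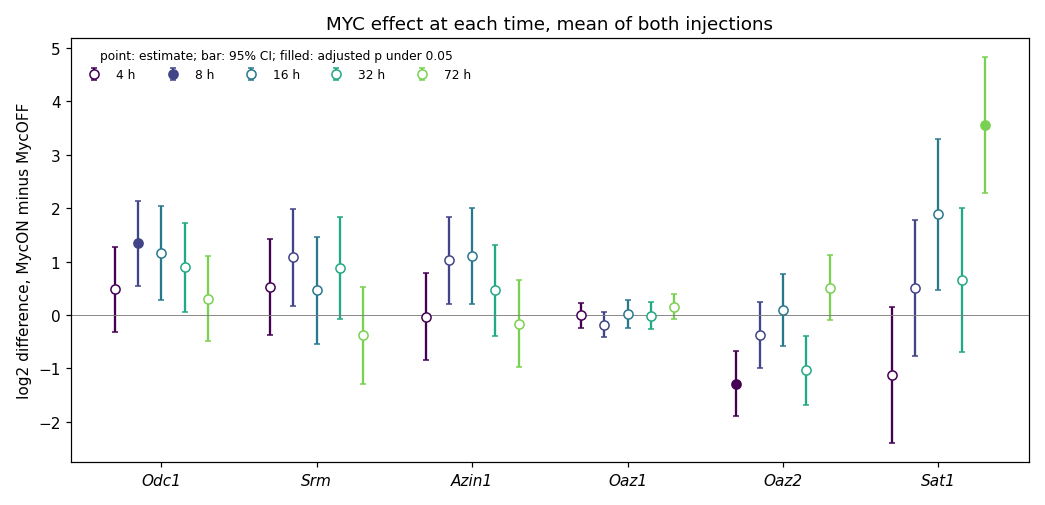
MycON minus MycOFF difference in log2 deviation (vertical axis), averaged over both injections, for the 6 genes (horizontal axis) at the 5 times (colours, h), with its 95% interval and filled points where the adjusted p is under 0.05. Odc1 peaks at 8 h with 1.34, Oaz2 is lowest at 4 h with -1.28, and Sat1 runs from -1.12 at 4 h to 3.55 at 72 h.

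Srm, which turns putrescine into spermidine, leaned the same way as Odc1 without passing the test. Its MycOFF values had a lowest, median and highest value of -1.22, -0.32 and 1.27 (water) and -1.68, 0.00 and 1.07 (exendin-4). The MycON values were -1.08, 0.42 and 1.29 (water) and -0.24, 0.17 and 1.30 (exendin-4). The states overlapped over most of their range, with 19 of 25 MycON arrays above the MycOFF median. The difference was 0.52 ± 0.21 (limma adjusted p 0.0873), and the MycON mean was higher in 8 of 10 matched pairs of groups, those at 72 h being the exceptions.

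At 8 h Srm stood at 0.74, 0.42 and 0.69 in MycON islets with water and at 1.30, 0.30 and 1.01 with exendin-4. The MycOFF islets had -0.63 and 0.43 (water) and -1.59, -0.22 and 0.07 (exendin-4). Only the highest MycOFF value reached into the MycON range, and the difference of 1.08 ± 0.45 did not pass (adjusted p 0.204). At 72 h all 6 MycON values were below 0, from -1.08 to -0.13, while MycOFF values ran from -1.68 to 1.07, and the difference was -0.38. Without the 72 h groups the averaged Srm difference was 0.74 and passed (limma adjusted p 0.0251), an alternative chosen after seeing the data.

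Azin1, the antizyme inhibitor, had a difference of 0.48 ± 0.18 over both injections (limma adjusted p 0.0760). Its MycOFF values had a lowest, median and highest value of -1.42, 0.04 and 0.56 (water) and -1.98, -0.37 and 0.42 (exendin-4), against -1.27, 0.29 and 1.05 and -1.31, 0.34 and 1.10 in MycON islets. The states overlapped, and 17 of 25 MycON arrays lay above the MycOFF median. At 16 h the 4 MycON values, 0.29, 0.72, 0.46 and 0.42, all lay above the 5 MycOFF values, the highest of which was 0.19. The difference there, 1.10, did not pass (adjusted p 0.193), nor did 1.02 at 8 h (adjusted p 0.171).

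The probe sets of Azin1 disagreed. Probe set 1422702_at differed by 0.14 over both injections and 1430984_at, which was below the filter on spread, by -0.02. Without the 72 h groups the difference of the chosen probe set was 0.64 and passed (limma adjusted p 0.0317), again chosen after seeing the data.

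Oaz1, the major antizyme, showed the narrowest spread of the 6 genes. Its values ran from -0.39 to 0.31 over all kept arrays, with 13 of 25 MycON arrays above the MycOFF median. The difference over both injections and all times was 0.00 ± 0.05 with a 95% interval of -0.11 to 0.11 (limma adjusted p 0.969). That interval holds for the average only. At single times the differences ran from -0.18 at 8 h (95% interval -0.42 to 0.06) to 0.15 at 72 h (95% interval -0.08 to 0.39).

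Oaz2, a second antizyme, was lower in MycON islets. Its MycOFF values had a lowest, median and highest value of -1.17, 0.48 and 1.09 (water) and -1.62, 0.32 and 1.53 (exendin-4). The MycON values were -0.93, -0.10 and 0.37 (water) and -1.48, -0.05 and 0.95 (exendin-4). The states overlapped, with 22 of 25 MycON arrays below the MycOFF median. The difference was -0.42 ± 0.14, or 0.749 times the MycOFF value (limma adjusted p 0.0361), with -0.47 with water (adjusted p 0.188) and -0.36 with exendin-4 (adjusted p 0.324). The call over both injections is lost when any 1 of 13 of the 52 arrays is left out (adjusted p up to 0.0776). These were MycON exendin-4 replicates 1 at 4 h, 3 at 16 h, 2 at 32 h and 2 at 72 h, MycON water replicates 1 at 16 h, 3 at 32 h and 3 at 72 h, MycOFF exendin-4 replicates 2 at 4 h and 1 at 72 h, and MycOFF water replicates 3 at 4 h, 3 at 8 h, 3 at 16 h and 1 at 72 h.

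The Oaz2 difference was largest at 4 h. The MycOFF values there were 0.61, 0.18 and 1.09 (water) and 0.47, 1.53 and 0.15 (exendin-4). The MycON values were -0.07, -0.41 and -0.04 (water) and -1.48 and -0.63 (exendin-4). Every MycON value lay below every MycOFF value, and the difference of -1.28 ± 0.30 (0.411 times, limma adjusted p 0.0127) made Oaz2 the 1 of 6 genes that passed at 4 h, against 2.29% of all tested genes. Without MycON exendin-4 replicate 1 at 4 h it was -1.07 (adjusted p 0.134), and without MycOFF exendin-4 replicate 2 at 4 h it was -1.08 (adjusted p 0.0585).

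At 32 h the groups did not overlap either. The MycOFF values of Oaz2 ran from 0.36 to 0.80 and the MycON values were -0.10, -0.93, -0.25 and -0.57. The difference was -1.03 ± 0.32 (limma adjusted p 0.0647), and 0 of the 6 genes passed at 32 h, against 3.31% of all tested genes. At unadjusted p under 0.05, 2 of the 6 did at 32 h, against 1973 of all 13176 tested genes. At 8, 16 and 72 h the differences were -0.38, 0.09 and 0.51, and the change of the effect over time did not pass (F test, limma adjusted p 0.0526).

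Other probe sets of Oaz2 did not show the difference. Probe set 1426764_at differed by 0.03 over both injections and by -0.16 at 4 h, and 1442541_at, below the filter on spread, by -0.07 and -0.12. With the mean over the probe sets in place of the chosen one, the difference over both injections was -0.15 (limma adjusted p 0.0641).

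Sat1, which starts the breakdown and export of spermidine and spermine, had the largest averaged difference of the 6 genes and the most uneven course. Among single times its difference was the largest at 16 and 72 h, but not at 4, 8 or 32 h. Its MycOFF values had a lowest, median and highest value of -1.75, -0.44 and 1.64 (water) and -1.60, -0.10 and 0.62 (exendin-4). The MycON values were -1.21, 0.16 and 3.78 (water) and -1.31, -0.01 and 4.63 (exendin-4). The states overlapped, and 7 of 25 MycON arrays lay above every MycOFF array. The difference was 1.09 ± 0.29 (2.13-fold, limma adjusted p 0.00758), but without the 72 h groups, an alternative chosen after seeing the data, it was 0.48 and did not pass (adjusted p 0.384).

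At 72 h the MycON values of Sat1 were 2.51, 3.78 and -0.49 (water) and 3.10, 3.05 and 4.63 (exendin-4). The MycOFF values were 0.35 and -1.39 (water) and -1.60, -1.46 and -0.10 (exendin-4). In 5 of 6 MycON arrays Sat1 was far above every MycOFF array, and the remaining 1, MycON water replicate 3, lay within the MycOFF range. The difference was 3.55 ± 0.63 (11.7-fold, 95% interval 2.28 to 4.83 on the log2 scale, limma adjusted p 9.5e-04), and Sat1 was the 1 of 6 genes that passed at 72 h, against 1.38% of all tested genes. It ran from 3.09 to 4.16 with each array left out in turn and passed every time.

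Macrophage markers moved with this result. At 72 h 4 of the 8 were higher in MycON islets, with a median difference of 1.92. Their mean deviation at 72 h was 2.22, 1.86 and -0.20 in MycON islets with water and 2.76, 2.54 and 3.39 with exendin-4, against -0.67 to 0.67 in MycOFF islets. The array with the low Sat1 value, MycON water replicate 3, was the array with the low macrophage mean. Stromal markers moved with it too within the MycON arrays, and 1 of 6 was higher in MycON islets at 72 h. Their mean was -0.91 in the same low array and 1.40 to 2.91 in the other MycON arrays at 72 h, against -0.92 to 3.30 in MycOFF islets. The value of 3.30 belonged to MycOFF exendin-4 replicate 2, in a group where Sat1 was at most -0.10 at 72 h. The part of macrophages, stroma or other cells in the Sat1 result was not tested.

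**Figure D3:**
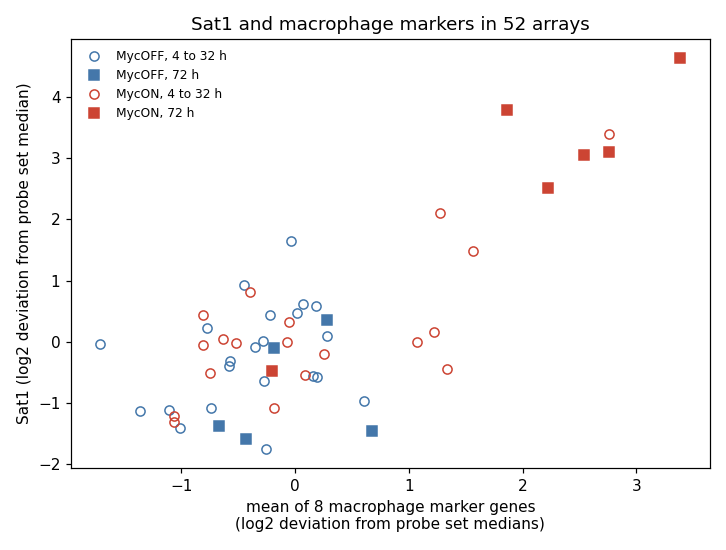
Sat1 deviation (log2, vertical axis) against the mean log2 deviation of the 8 macrophage markers (horizontal axis) in each kept array, by MYC state and time. At 72 h the MycON array with Sat1 at -0.49 has a marker mean of -0.20, and the others have Sat1 from 2.51 to 4.63 with means from 1.86 to 3.39.

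At earlier times Sat1 varied within groups. At 16 h the MycON values were 0.44 and 2.10 (water) and 3.40 and -0.01 (exendin-4), against 0.93 and -1.41 (water) and 0.01, -0.57 and -1.13 (exendin-4) in MycOFF islets. The pairs of one group were wide apart, and the arrays at 3.40 and 2.10 had macrophage means of 2.76 and 1.27, against -0.07 and -0.81 for the other MycON arrays. The difference of 1.88 ± 0.69 did not pass (limma adjusted p 0.154). At 4 h the MycON values were -0.03, -1.21 and -0.55 (water) and -1.31 and -1.08 (exendin-4), and 3 of the 5 lay below all MycOFF values, which ran from -0.64 to 1.64. That difference was -1.12 ± 0.63 (limma adjusted p 0.514), and those at 8 and 32 h were 0.50 and 0.65. At 32 h the MycON Sat1 values ran from 0.16 to 1.48 (water) and from -0.45 to -0.20 (exendin-4). The macrophage means of these arrays were 1.57 and 1.22 (water) and 0.26 and 1.34 (exendin-4). In MycOFF islets at 32 h Sat1 ran from -1.11 to 0.44 and the macrophage mean from -1.10 to 0.61. The part of macrophages at these times was not tested. The MYC effect on Sat1 changed over time (F of 7.60, limma adjusted p 0.0192), the 1 of 6 genes to do so, against 1.59% of all tested genes. Without MycOFF water replicate 3 at 72 h the adjusted p of that test was 0.0794.

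**Figure D4:**
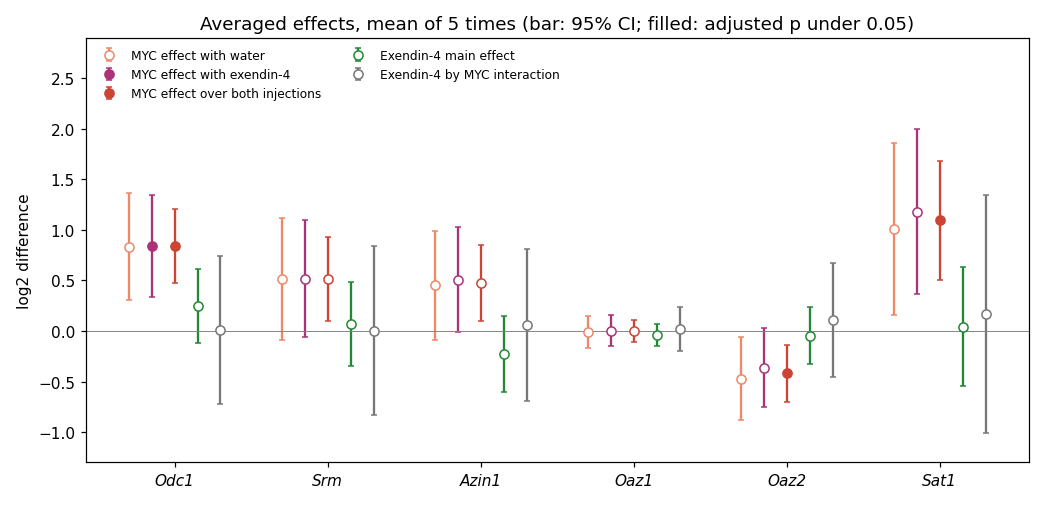
Log2 differences (vertical axis) with 95% intervals for the 6 genes (horizontal axis): MycON minus MycOFF with water, with exendin-4 and over both, exendin-4 minus water, and the interaction, with filled points where the adjusted p is under 0.05. The Odc1 differences with water and with exendin-4 are 0.83 and 0.84, and those of Sat1 are 1.01 and 1.18.

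Exendin-4 itself was compared with water over both MYC states, and 0 of the 6 genes passed in limma, against 1.32% of all tested genes. At unadjusted p under 0.05, 0 of the 6 did, against 1629 of all 13176 tested genes. The differences were 0.25 for Odc1 (95% interval -0.12 to 0.61), 0.07 for Srm, -0.22 for Azin1, -0.04 for Oaz1, -0.04 for Oaz2 and 0.04 for Sat1 (95% interval -0.55 to 0.63), with adjusted p from 0.588 to 0.963. For the difference of the MYC effect between exendin-4 and water, 0 of the 6 genes passed (0 at unadjusted p under 0.05), and 0 of all tested genes did (0%; 250 at unadjusted p under 0.05). For Sat1 that difference, a mean over the 5 times, was 0.17 with a 95% interval of -1.01 to 1.35. At single times it was not tested. The Sat1 MYC difference was 4.65 with exendin-4 and 2.46 with water at 72 h, but -0.14 and 1.44 at 32 h. In MycOFF islets over time, 0 of the 6 genes passed the F test in limma, against 0.00759% of all tested genes, which is 1 gene. At unadjusted p under 0.05, 1 of the 6 did over time (Oaz2), against 561 of all 13176 tested genes.

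Among the other genes of the pathway, 27 were listed and 24 tested, and 3 were higher and 2 lower in MycON islets over both injections, against 15.4% of all tested genes (9.93% higher and 5.48% lower). Their median difference was 0.10, with 15 of 24 above 0, and the count lies near the share over all genes. Mtap, which salvages the methylthioadenosine released by Srm and Sms, was higher by 1.37 ± 0.20 (limma adjusted p 8.3e-06). Its MycOFF values had a lowest, median and highest value of -1.89, -0.43 and 1.04, against -1.03, 1.67 and 3.32 in MycON islets, so the states overlapped only partly. By time the Mtap difference was 2.23, 2.48, 0.39, 2.07 and -0.29 at 4, 8, 16, 32 and 72 h, and this change passed the F test (adjusted p 0.0192).

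Atp13a3, a polyamine transporter, was higher by 0.84 ± 0.15 (adjusted p 1.8e-04), with MycOFF values of -1.63 to 0.53 around a median of -0.26 and MycON values of -0.81 to 1.75 around 0.32. Dhps, which uses spermidine to make hypusine on the translation factor eIF5A, was higher by 0.47 ± 0.16 (adjusted p 0.0378), with medians of -0.14 and 0.32. Sat2, a relative of Sat1, was lower, with a difference of -0.45 ± 0.11 (adjusted p 0.00493), with medians of 0.53 in MycOFF and -0.06 in MycON islets, opposite in sign to Sat1. Slc18b1, a vesicular polyamine transporter, was lower, with a difference of -0.60 ± 0.16 (adjusted p 0.00704), with medians of 0.35 and -0.12. Oat, ornithine aminotransferase, had the next smallest p, with 0.55 (adjusted p 0.0763).

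Their probe sets also differed in size. Other probe sets of Mtap gave 0.88, 0.90 and 0.19, those of Atp13a3 0.35 and 0.07, and that of Dhps 0.40 (adjusted p 0.413). With exendin-4 against water, Slc18b1 was lower, with a difference of -0.59 (limma adjusted p 0.0494). The MYC effect passed in each injection for Mtap, at 1.51 (water) and 1.23 (exendin-4), and for Atp13a3, at 0.93 and 0.74. Sat2 passed with water (-0.56, limma adjusted p 0.0367) but not with exendin-4 (-0.34, adjusted p 0.232). Of the 24 genes, 2 were higher and 1 lower with water, against 5.59% of all tested genes in either direction. With exendin-4 2 were higher and 0 lower, against 5.79%.

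**Figure D5:**
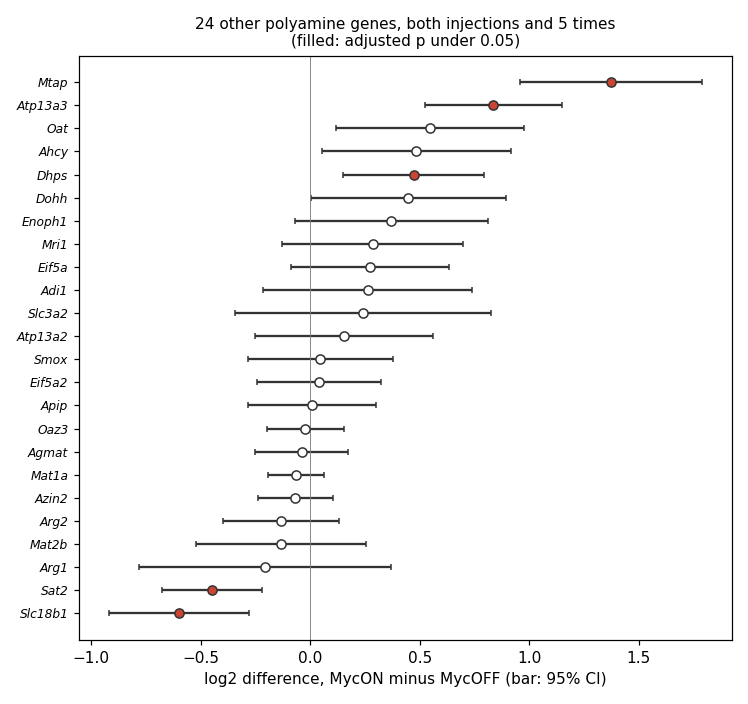
MycON minus MycOFF difference over both injections (log2, horizontal axis) with its 95% interval for the 24 other polyamine genes tested, filled where the adjusted p is under 0.05. Mtap at 1.37 stands highest and Slc18b1 at -0.60 lowest.

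For each member that passed in a MYC comparison, the most similar genes by Pearson correlation over the 20 group means, which all come from the same arrays, were as follows. Odc1 was closest to Tuba4a (0.942), Cdv3 (0.918) and Grpel1 (0.917). Oaz2 was closest to Rab3d (0.865), Retreg3 (0.865) and Hspa13 (0.839), lower than for Odc1. Sat1 was closest to Slc15a3 (0.918), Ctsb (0.915) and Slc37a2 (0.912). These are descriptions without a test.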

How the data were processed

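Expression was measured in laser-captured islets on 60 Affymetrix arrays, 52 of which the submitters kept. The deposited table holds log2 values of 45101 probe sets, centred on each probe set's median over the 60 arrays. MAS5 and GCRMA are listed by the submitters' processing notes, which give neither version nor role; what else was done upstream is not given in the sources used here. Base 2 was inferred from the range of the values, -12.30 to 12.76, since no label names the base. Per the labels' protocols, 6 µg of RNA from sections of 15 µm were used per array. The number of arrays limits the precision.

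The values were used as deposited. Of 34945 probe sets with a single symbol, those with an interquartile range of at least 0.101 were kept, and the widest represented its gene. That cut is the 40th percentile over all probe sets of the array other than the Affymetrix controls. One model with 20 group means (12 of 3 arrays, 8 of 2) was fitted in R 4.3.3 by limma 3.58.1, which gave 32 residual and 2.75 prior degrees of freedom and Benjamini-Hochberg adjustment over 13176 genes. Time was tested with moderated F tests. The script was tested on simulated data. Named genes were the 8 members, up to 6 other polyamine genes (those past the threshold, then by smallest p) and the 3 most similar genes of each member that passed a MYC comparison. Azin2, which passed at 8 h, and other calls outside this rule are not described. The members and all lists were chosen with earlier results of these data known. Promoters of 6 of the 8 members matched the RefSeq table; 3 are printed. Alternatives were all 60 arrays, quantile normalization, no filter, the mean over probe sets, a replicate block, array weights, each array left out and, chosen after seeing the data, no 72 h groups. No pair of arrays was identical (0 pairs, highest correlation 0.558).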

Additional observations from a re-analysis of the deposited data

Results flagged for a closer look

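The MYC effect on Sat1 differed between the 5 times, with an adjusted p of 0.0192 in limma's F test. The difference ran from -1.12 at 4 h to 3.55 at 72 h.

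The 8 arrays that the submitters excluded enter no comparison above other than the one that puts them back. In 7 of the 8, Sat1 lay above every kept MycOFF array, with excluded values from -0.99 to 4.50. Odc1 lay above every kept MycOFF array in 6 of the 8, with values from -0.27 to 1.01. Oaz1 did so in 2 of the 8, with values from -0.27 to 0.35. In the same arrays the beta-cell marker mean had a median of -5.15, against 0.08 in the kept arrays, and the acinar mean a median of -2.07, against 0.20. The macrophage mean had a median of 2.30, against -0.19, and the stromal mean 1.95, against -0.26. The part of these markers in the Sat1, Odc1 and Oaz1 values was not tested.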

How the results depend on the processing

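The numbers of members past the threshold were 3 over both injections, 0 with water, 1 with exendin-4, 1, 1, 0, 0 and 1 at 4, 8, 16, 32 and 72 h, and 1 for the change over time; the cause of each shift below was not tested. With all 60 arrays they were 1 over both injections, 2 with exendin-4, 0 at 4 h, 0 at 8 h, 1 at 32 h, 0 at 72 h (Sat1 2.98, adjusted p 0.513) and 0 over time. Quantile normalization gave 2 with water, 1 at 32 h and 2 over time; the mean over probe sets 1, 2 and 2; array weights, whose estimation did not converge, 1, 2 and 2, and 0 with exendin-4. No filter gave 0 with exendin-4 and 0 at 8 h. Without the 72 h groups there was 1 with water and 0 with exendin-4. With each array left out, the counts ran from 2 to 5 over both injections (5 without MycOFF exendin-4 72 h replicate 3), from 0 to 1 with water, from 0 to 2 with exendin-4, from 0 to 1 at 4, 8, 16 and 32 h, from 1 to 1 at 72 h, and from 0 to 2 over time. Odc1 over both injections kept its call with each array left out (0.75 to 0.93), and Oaz2 ran from -0.49 to -0.34 with an adjusted p up to 0.0776.

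The replicate numbers are not shown to pair arrays (20 of 52 arrays correlate best with their own number). The replicate block gave 1 member with water (Odc1 0.87, adjusted p 0.0434) and brought Azin1 past the threshold over both injections (0.51, adjusted p 0.0473).

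Some signs turned, none for a value that had passed the threshold, and mostly for values near 0; Sat1 at 8 h, at 0.50, was an exception. With all 60 arrays these were Oaz1 with exendin-4 (-0.011), at 4 h (0.0065) and at 16 h (-0.023), Azin1 at 4 h (0.028), Sat1 at 8 h (-0.17), Oaz2 for exendin-4 against water (0.096) and the Srm interaction (-0.22). Quantile normalization turned Oaz1 over both injections (0.019), with water (0.044), with exendin-4 (-0.0069) and at 32 h (0.12), Azin1 at 4 h (0.061), and the interactions of Odc1 (-0.15), Srm (-0.12), Azin1 (-0.065), Oaz1 (-0.051) and Sat1 (-0.13). The mean over probe sets turned Oaz2 for exendin-4 (0.028), the Odc1 interaction (-0.13) and Azin1 at 4 h (0.023). The replicate block turned Oaz1 with exendin-4 (-0.0069) and at 16 h (-0.0026), Azin1 at 4 h (0.024), and the interactions of Odc1 (-0.00044) and Srm (-0.0027). Array weights turned Oaz1 over both injections (0.0067), with water (0.0015) and at 16 h (-0.021), the Srm interaction (-0.22) and Azin1 at 72 h (0.054). Without the 72 h groups Oaz1 with exendin-4 was -0.017.

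With each array left out, the values that turned sign ran as follows. Oaz1 ran from -0.027 to 0.019 over both injections, from -0.035 to 0.0090 with water, from -0.041 to 0.050 with exendin-4, from -0.12 to 0.11 at 4 h, from -0.024 to 0.069 at 16 h and from -0.069 to 0.024 at 32 h. Azin1 ran from -0.34 to 0.27 at 4 h and from -0.41 to 0.11 at 72 h, Srm from -0.88 to 0.12 at 72 h, Sat1 from -0.080 to 1.08 at 8 h and Oaz2 from -0.039 to 0.23 at 16 h. For exendin-4 against water, Sat1 ran from -0.13 to 0.21, Oaz2 from -0.12 to 0.029 and Srm from -0.030 to 0.17. The interaction ran from -0.18 to 0.19 for Odc1, -0.19 to 0.20 for Srm, -0.10 to 0.22 for Azin1, -0.029 to 0.063 for Oaz1, -0.038 to 0.25 for Oaz2 and -0.17 to 0.51 for Sat1.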
